A study of Mus musculus with 18 samples.

Results

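The livers of 9 mice with the wild-type form of GKRP, a regulatory protein of hepatic glucose metabolism encoded by Gckr, were compared by sex, with 5 female mice (female PP) against 4 male mice (male PP). They were chosen by their titles and make up 9 of the 18 libraries of the series, which also holds 5 female and 4 male livers homozygous for a leucine knock-in allele of Gckr (LL). PP and LL mice came from matings of heterozygous mice of a C57BL/6N line, and were kept on standard diet with alternating light and dark periods. The labels give ages of 9, 9, 11, 12 and 14 weeks for female PP 1 to 5 and 9, 12, 14 and 14 weeks for male PP 1 to 4. For LL mice they give 11, 11, 13, 13 and 14 weeks (female LL 1 to 5) and 13, 13, 13 and 14 weeks (male LL 1 to 4). The series description gives 14 weeks for all mice. The fits of LL mice and of the genotype by sex interaction held no age term, so the part of age in them was not tested. Hour of harvest and stage of the oestrous cycle were not given in the sources used here. Liver RNA was sequenced and the reads were assigned to transcripts, and the values below are gene counts normalised for library size, unless stated otherwise.

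Adult mouse liver is one of the tissues whose transcriptome differs most between the sexes. The pituitary of male rodents releases growth hormone in pulses separated by long gaps, and that of females releases it in a more continuous way. Growth hormone acts through its receptor on hepatocytes to activate the transcription factor STAT5B, which works with repressors such as BCL6, known from male liver, and CUX2, known from female liver. Known sex-biased genes of the liver encode cytochromes P450 of steroid and drug metabolism, the major urinary proteins (MUPs) that carry pheromones into urine, and enzymes of lipid metabolism.

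Total estimated counts per library ranged from 3794671 (male PP 1) to 6613905 (male PP 3). The first principal component separated all female from all male livers. Male PP 1, with the fewest counts, also had the fewest genes with at least 10 counts, 8711 against 9734 to 10641 in the other livers. Fragment length, estimated from the effective transcript lengths, ranged from 369 to 631 bases in female PP and from 396 to 629.7 bases in male PP liver, and its part in the results was not tested apart from the fit with fragment length as a covariate. Albumin, the main plasma protein made by hepatocytes, led the TPM values (levels scaled to transcript length and to the library total) of female PP liver at 82636 ± 23252 (SD), and defining markers of T and NK cells and of neutrophils reached at most 12 estimated counts in any PP library. On the log2 TPM scale the median gene lay 0.74 higher in female PP, against -0.0028 in the normalised counts, and the reason for this shift was not tested. Sex differences below are those of the normalised counts unless TPM is named. Nothing in the labels says more than that each library is a separate mouse, so P values measure the spread between these mice.

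The test covered 10156 autosomal genes, those that reached 10 counts in 4 or more of the 9 libraries. Of these 737 (7.26%) were differentially expressed genes (DEGs), defined by a DESeq2 adjusted P under 0.05 together with a female to male ratio of 1.3 or above, or of 0.7 or below. The adjusted P alone was under 0.05 for 7.91%. The 430 genes higher in female PP liver (4.23%) had a median log2 fold change of 0.99, and the 307 genes lower in female PP liver (3.02%) had a median of -1.003. Changes of 2 or more in size on the log2 scale were seen in 51 genes of the first group and 56 of the second. The counts of the 5 female and 4 male livers did not overlap for 343 of the 430 and 233 of the 307 DEGs. Over all tested genes this was so for 9.86%, with 5.35% higher and 4.51% lower in females. All 19 autosomes held DEGs, from 4.22% of the genes tested on chromosome 11 to 10.4% on chromosome 4.

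**Figure D1:**
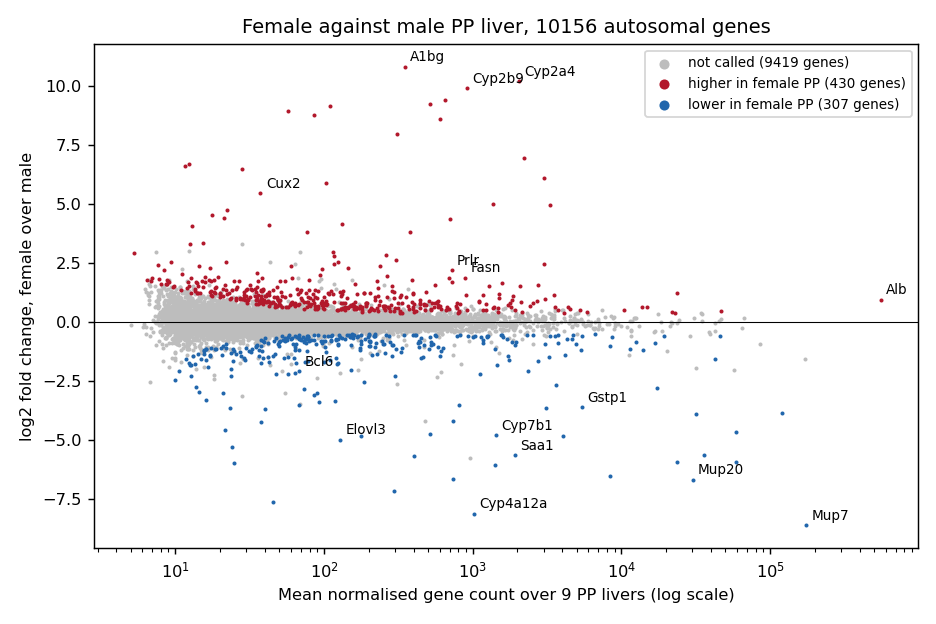
Each point is one of 10156 autosomal genes, with its mean normalised count over the 9 PP livers on a log axis and the log2 fold change of female over male PP on the vertical axis. The 430 genes called higher in female PP are red, the 307 called lower are blue, and the genes with the largest changes, such as A1bg above and Mup7 below, lie farthest from 0.

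Among hormone receptors and signalling genes of the growth hormone list, the prolactin receptor gene Prlr (chromosome 15, 10177258 to 10349959, GRCm39) differed with the smallest adjusted P. Prlr counts were 1051, 1288, 904, 1231 and 1054 in female PP 1 to 5 and 227, 222, 253 and 263 in male PP 1 to 4. The lowest female liver was thus well above the highest male liver, with log2 fold change 2.19 ± 0.14 (SE), adjusted P = 1.65e-52. Its TPM was 82.8 ± 20.2 in female PP liver (SD), and 8.79, 8.17, 6.77 and 48.0 in male PP 1 to 4. Male PP 4 was thus apart on the scale per length while its count was like that of the other males, and the reason was not tested.

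Cux2, which encodes a homeobox repressor, had counts of 33.9, 156, 69.6, 51.8 and 18.4 in the female livers and 3.40, 2.23, 0.997 and 0 in the male livers. The groups did not overlap, but the females spread widely around their mean (log2 fold change 5.45 ± 0.95 (SE), adjusted P = 7.24e-07). Bcl6 showed the opposite direction, with counts of 28.0, 40.5, 33.9, 21.1 and 15.5 in females against 169.8, 56.8, 44.9 and 201 in males. Male PP 1 and male PP 4 stood well above the other males, and all males were above all females (log2 fold change -2.09 ± 0.53 (SE), adjusted P = 0.00234). Esr1, the gene of oestrogen receptor alpha, was higher in females at 124 ± 16.6 in female PP and 49.5 ± 5.37 in male PP liver (mean ± SD), with log2 fold change 1.33 ± 0.19 (SE), adjusted P = 1.97e-10. Trim24, a co-regulator of nuclear receptors, was also higher (log2 fold change 1.10 ± 0.27 (SE), adjusted P = 0.00112).

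The growth hormone receptor gene Ghr had counts of 1955, 1848, 2188, 2017 and 2036 in females and 2952, 2262, 3179 and 2507 in males. All males were above all females, yet the fold change of 0.737 lay inside the fold limit, so Ghr was not counted as a DEG (log2 fold change -0.44 ± 0.12 (SE), adjusted P = 0.00768), though it was one without male PP 2 (log2 fold change -0.52). Among the targets of the receptor, Socs2, a feedback inhibitor of its signalling, was higher in females (log2 fold change 0.79 ± 0.24 (SE), adjusted P = 0.0179), with the lowest count of 43.8 in male PP 4 and a call that was lost in 5 of 22 alternatives. Igfals, the acid-labile subunit that carries insulin-like growth factor 1 (IGF1) in plasma, was higher as well (log2 fold change 0.64 ± 0.14 (SE), adjusted P = 2.83e-04). Igf1 itself had 3708 ± 399 in female PP and 2934 ± 452 in male PP liver (mean ± SD) and did not pass the test (log2 fold change 0.34, adjusted P = 0.119). Egfr, the epidermal growth factor receptor, was lower in females at 2179 ± 634 in female PP and 4181 ± 636 in male PP liver (mean ± SD), with log2 fold change -0.94 ± 0.20 (SE), adjusted P = 8.72e-05.

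Across the growth hormone and STAT5 list, 3 of 20 tested genes were higher and 1 was lower, where 4.23% and 3.02% of all tested genes were. The median log2 fold change of the list was 0.12, against -0.0028 over all genes tested. The STAT5 genes did not pass the test (Stat5a log2 fold change 0.47, adjusted P = 0.338, and Stat5b 0.37, adjusted P = 0.291). Cish, another feedback inhibitor, ranged from 36.4 to 119 in females and from 4.76 to 112 in males and was not called (log2 fold change 0.89, adjusted P = 0.705). Male PP 2 decided this value, since without it the log2 fold change of Cish was 2.29 and the gene was called (adjusted P = 0.0329). Tox, listed among female-biased regulators, was not called (log2 fold change 0.81, adjusted P = 0.112), except without male PP 3 (adjusted P = 0.0426). Of 38 transcription factors of the liver, 4 were higher (Cux2, Esr1, Trim24 and Srebf1) and 2 lower (Bcl6 and Xbp1), and the median of the list was 0.03.

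**Figure D2:**
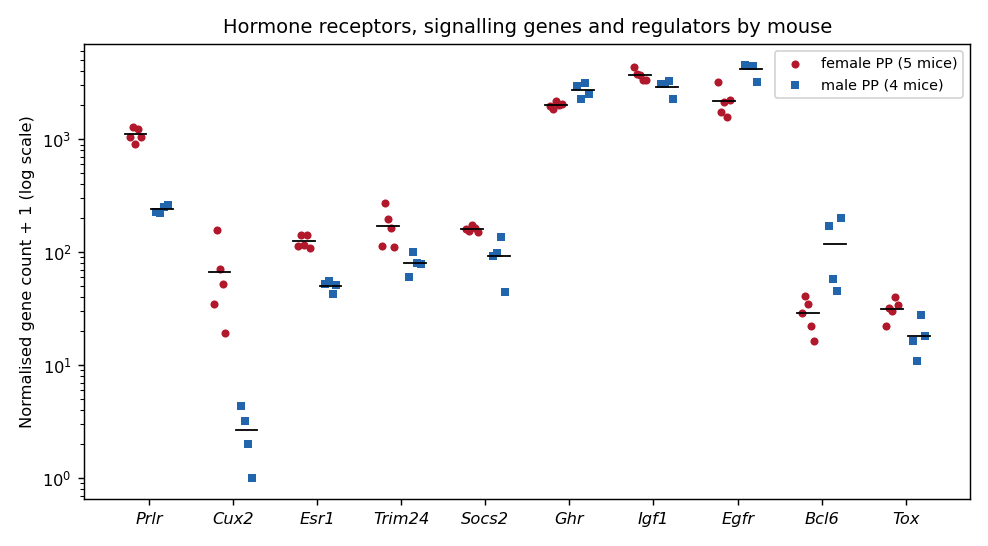
Normalised gene count plus 1 on a log axis for 10 receptors, signalling genes and regulators, with each female PP liver as a red circle, each male PP liver as a blue square and black bars at the means. Prlr, Cux2 and Esr1 separate the sexes upward in females and Bcl6 upward in males, while the points of Tox overlap.

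The 300 bases around the start of Prlr, from 270 bases before to 30 bases into the transcript that held the most Prlr reads, are shown because they contain the palindrome TTCNNNGAA, the core sequence that STAT5 proteins bind. Capitals mark this match, which lies 41 to 33 bases before the start.
Prlr (chr15:10223653-10223952, + strand): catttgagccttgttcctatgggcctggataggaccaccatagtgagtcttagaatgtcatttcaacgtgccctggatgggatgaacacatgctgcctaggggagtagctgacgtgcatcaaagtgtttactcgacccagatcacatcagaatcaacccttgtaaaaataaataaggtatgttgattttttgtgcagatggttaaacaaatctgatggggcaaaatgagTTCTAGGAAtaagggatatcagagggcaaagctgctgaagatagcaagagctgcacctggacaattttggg
The same letters occur on either strand in 8.08% of such windows over all tested genes, in 8.84% of those of genes higher in female PP and in 9.77% of those of genes lower in female PP. A match describes the letters only and no binding was measured.

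Cyp2a4, the steroid hydroxylase of female liver (chromosome 7, 26006594 to 26014513), had the smallest adjusted P of all genes. Counts were 2706, 5604, 2686, 4941 and 2392 in females and 3.40, 5.57, 0.997 and 2.86 in males, and every male liver lay near 0 (log2 fold change 10.20 ± 0.51 (SE), adjusted P = 2.96e-85). Cyp2a5, the coumarin hydroxylase gene of the same subfamily (chromosome 7, 26534730 to 26542973), was abundant in both sexes and went the other way, with 1737, 3175, 3043, 4429.5 and 4475 in females and 6439, 7028, 9354 and 8186 in males (log2 fold change -1.20 ± 0.23 (SE), adjusted P = 1.41e-05). Every male liver was above every female liver for Cyp2a5. The transcripts of the pair share 58.1% (Cyp2a4) and 54.6% (Cyp2a5) of their words of 31 bases with transcripts of other genes, which makes the division of their reads less certain than for single-copy genes.

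Beside Cyp2a4 on chromosome 7 lie the Cyp2b genes, which encode drug- and steroid-metabolising cytochromes. Cyp2b9 had 1208, 2093, 1368, 1831 and 1765 in females and 8.49, 1.11, 0 and 0 in males (log2 fold change 9.90 ± 0.61 (SE), adjusted P = 5.50e-55). Cyp2b13 had 470.3, 1297, 307, 1759.7 and 1621 in females and 10.2, 2.23, 0 and 0 in males (log2 fold change 8.59 ± 1.10 (SE), adjusted P = 1.17e-12). In both genes the male reads came from male PP 1 and male PP 2 only, and without male PP 1 the log2 fold change was 12.14 for Cyp2b9 and 10.62 for Cyp2b13. The sizes of these changes thus rest on a few male reads, and 40.8% of the words of Cyp2b13 occur in other genes. Cyp2b10, known for its induction by phenobarbital, was at 0 in all 4 male livers and at 8.47, 40.5, 6.25, 39.3 and 16.9 in females, at least 26.3-fold higher when 3 counts over the male group are taken as the floor (adjusted P = 4.70e-07). Together with the predicted gene Gm42375 these genes form a run of 5 neighbouring DEGs higher in female PP, from 25597045 to 26016774.

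The start windows of these genes are printed because near-identical sequence goes with opposite sex differences in one pair and the same direction in the other. Over the aligned part, Cyp2a4 and Cyp2a5 had 285 of 290 bases identical (98.3%), and Cyp2b9 and Cyp2b13 had 297 of 299 (99.3%). Capitals mark TATAAA on either strand. It occurs in 9.02% of all windows, in 12.3% of those of genes higher in female PP and in 14.3% of those of genes lower.
Cyp2a4 (chr7:26006324-26006623, + strand): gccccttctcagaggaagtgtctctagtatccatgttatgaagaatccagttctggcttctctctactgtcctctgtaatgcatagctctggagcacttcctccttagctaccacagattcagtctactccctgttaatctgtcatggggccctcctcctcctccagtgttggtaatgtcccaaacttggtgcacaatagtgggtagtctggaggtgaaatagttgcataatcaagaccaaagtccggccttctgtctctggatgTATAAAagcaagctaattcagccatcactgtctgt
Cyp2a5 (chr7:26534460-26534759, + strand): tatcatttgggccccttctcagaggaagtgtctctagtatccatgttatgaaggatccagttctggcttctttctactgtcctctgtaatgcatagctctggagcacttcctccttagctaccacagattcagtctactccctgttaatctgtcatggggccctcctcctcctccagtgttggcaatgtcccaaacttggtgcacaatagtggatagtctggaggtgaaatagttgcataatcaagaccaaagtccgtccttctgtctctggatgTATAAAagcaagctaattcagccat
Cyp2b9 (chr7:25872565-25872864, + strand): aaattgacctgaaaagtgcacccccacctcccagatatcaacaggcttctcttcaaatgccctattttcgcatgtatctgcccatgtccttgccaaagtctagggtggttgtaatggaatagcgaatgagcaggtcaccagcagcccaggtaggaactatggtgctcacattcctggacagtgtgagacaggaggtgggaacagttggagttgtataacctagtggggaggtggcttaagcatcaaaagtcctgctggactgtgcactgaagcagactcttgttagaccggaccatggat
Cyp2b13 (chr7:25760652-25760951, + strand): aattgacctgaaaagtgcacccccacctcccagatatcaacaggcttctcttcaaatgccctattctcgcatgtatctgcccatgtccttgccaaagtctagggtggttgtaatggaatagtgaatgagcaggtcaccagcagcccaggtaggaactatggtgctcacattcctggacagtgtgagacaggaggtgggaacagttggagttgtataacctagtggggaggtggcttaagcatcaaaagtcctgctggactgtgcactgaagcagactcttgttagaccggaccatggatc
TATAAA begins 5 bases before the annotated start of Cyp2a4 and 6 bases into the annotated transcript of Cyp2a5, and neither Cyp2b window holds it. None of these windows holds TTCNNNGAA. The windows lie on GRCm39 and their start sites are those of the GENCODE annotation.

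Flavin monooxygenases, which oxidise nitrogen and sulfur in drugs, also differed in both directions. Fmo2 had 93.2, 287, 148, 204 and 255 in females and 22.1, 25.6, 45.9 and 39.0 in males, without overlap (log2 fold change 2.55, adjusted P = 1.69e-13). Fmo4 and Fmo1, like Fmo2 on chromosome 1, were also higher, while Fmo5 on chromosome 3 was lower in females (log2 fold change -0.86, adjusted P = 1.33e-09).

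In the Cyp2c family on chromosome 19, 6 of 13 tested genes were higher in female PP and none was lower. Over all tested genes 4.23% were higher and 3.02% lower. Cyp2c38 had 419, 498, 378, 462 and 372 in females against 57.7, 63.4, 66.8 and 51.4 in males, with tight groups in both sexes (log2 fold change 2.83 ± 0.17 (SE), adjusted P = 4.31e-60). Cyp2c69 was at 3934 ± 1628 in female PP and 32.2 ± 29.6 in male PP liver (mean ± SD) (log2 fold change 6.95, adjusted P = 1.46e-18) and Cyp2c40 at 5773 ± 2139 in female PP and 187 ± 234 in male PP liver (mean ± SD) (log2 fold change 4.95, adjusted P = 2.36e-07). Male PP 1 had 529.6 Cyp2c40 counts, above the 32.4 to 144 of the other males, and without it the log2 fold change was 6.30 for Cyp2c40 and 7.61 for Cyp2c69. Cyp2c68, Cyp2c40, Cyp2c69 and Cyp2c37 are neighbours, and Cyp2c69 and Cyp2c40 have 64.9% and 49.3% of their words in common with other genes. In the Cyp3a family, Cyp3a41a ranged from 4.42 in female PP 5 to 3851 in female PP 4 and from 0 to 2.99 in males (log2 fold change 9.23, adjusted P = 1.87e-06), with 99.9% of its words in common with other genes. Cyp3a44 was higher as well (log2 fold change 5.91, adjusted P = 1.54e-09). Without female PP 4 these values were 7.01 and 5.32.

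Several genes were nearly silent in male PP liver. A1bg, which encodes a plasma glycoprotein, had 285, 2048, 142, 620.5 and 42.7 in females and 1 count in all male livers together, a ratio of 2222 (95% counting interval 399 to 87771) with an adjusted P of 1.10e-09. The sulfotransferase gene Sult3a1 had 159, 142, 58.9, 439 and 186 in females against 1 count in males, a ratio of 697 (95% counting interval 125 to 27544). Slc22a27, an organic anion transporter gene, had 43.2, 305, 41.9, 281 and 100.2 against 1 count in males, a ratio of 547 (95% counting interval 98.1 to 21586). These intervals cover counting error only and not the spread between mice, which was wide in A1bg and Slc22a27. Hao2, a peroxisomal hydroxyacid oxidase gene, was at 0 in all males and at 20.3, 199, 1.78, 264 and 33.9 in females, at least 123-fold higher against the same floor. The call of Hao2 was lost with the edgeR quasi-likelihood test (adjusted P = 0.0652).

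Other genes among the smallest adjusted P values were higher in female PP without overlap between the groups. Slc22a26, next to Slc22a27, had 348, 726, 439.9, 572 and 704 in females and 3.40, 1.11, 0 and 4.76 in males (log2 fold change 7.95, adjusted P = 1.62e-42, and 8.84 without male PP 4). Ugt1a5, a glucuronosyltransferase gene, was at 487 ± 119.9 in female PP and 78.3 ± 21.1 in male PP liver (mean ± SD) (log2 fold change 2.62, adjusted P = 2.92e-27), with 75.6% of its words in common with other genes. Rdh16f2, a retinol dehydrogenase gene in a run of 4 neighbours on chromosome 10, was at 1046 ± 117 in female PP and 326 ± 60.5 in male PP liver (mean ± SD) (log2 fold change 1.68, adjusted P = 7.97e-26). Acnat2, an acyl transferase gene of peroxisomes, was at 185 ± 56.5 in female PP and 32.9 ± 8.88 in male PP liver (mean ± SD) (log2 fold change 2.47, adjusted P = 1.99e-18). Lepr, the leptin receptor gene, had 42.4, 86.7, 51.8, 95.9 and 92.1 in females and 5.09, 2.23, 4.98 and 4.76 in males (log2 fold change 4.12 ± 0.46 (SE), adjusted P = 1.44e-16). The lowest female liver was several times above the highest male liver for Lepr.

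Albumin and afamin, adjacent among the tested genes of chromosome 5, were both higher in female PP. Alb counts were 718357, 694327, 658185, 696130 and 768638 in females and 435831, 335074, 330371 and 374956 in males (log2 fold change 0.94 ± 0.11 (SE), adjusted P = 8.57e-15). Afm, which encodes a plasma carrier of vitamin E, was at 1546 ± 181 in female PP and 708 ± 62.9 in male PP liver (mean ± SD) (log2 fold change 1.13 ± 0.12 (SE), adjusted P = 1.90e-17). In neither gene did the groups overlap.

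The major urinary protein genes on chromosome 4 gave the strongest male signal. They took up 5.04, 3.09, 7.83, 3.29 and 2.25% of the autosomal counts of female PP 1 to 5 and 26.6, 33.7, 31.2 and 23.8% of those of male PP 1 to 4. All males were thus above all females (exact two-sided permutation test, p = 0.00794, the smallest that 9 mice in these groups allow), and female PP 3 had the highest share of the females. Of 21 tested Mup genes 17 were lower in females and none higher, against 3.02% and 4.23% over all genes tested. Summed Mup counts were 8.79 times higher in male than in female PP liver. The size of this difference depended on the scale, with a log2 ratio of female over male of -3.14 for the summed counts and of -1.94 for the summed TPM, which were 99243 ± 50846 in female and 381413 ± 50916 in male PP liver (SD). Mup7 had 1384, 239.9, 2903, 311 and 209 in females and 425168, 458841, 415517 and 267999 in males (log2 fold change -8.60 ± 0.86 (SE), adjusted P = 6.17e-21).

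Mup20, which encodes the pheromone darcin, had 830.4, 442, 1394, 246 and 368 in females and 73647, 52082, 69183 and 73149 in males (log2 fold change -6.67 ± 0.53 (SE), adjusted P = 1.70e-33). Mup14 (log2 fold change -5.93, adjusted P = 6.80e-35), Mup1 (-6.52, 1.86e-24), Mup21 (-4.75, 1.32e-23), Mup16 (-2.79, 7.52e-23) and Mup8 (-6.63, 6.97e-13) were lower in females, with the log2 fold change and adjusted P given for each. Mup genes are close copies, and 92.4% of the 31-base words of Mup7, 94.5% of those of Mup8 and 64.5% of those of Mup20 also occur in other genes. Values of single Mup genes are therefore uncertain. Without female PP 3 the log2 fold change was -9.51 for Mup7 and -7.89 for Mup8. Mup18 ranged from 294 to 2736 in females and from 1344 to 12111 in males, so its groups overlapped (log2 fold change -2.66, adjusted P = 0.0249), and its call was lost in 9 of 22 alternatives. Without female PP 5 its log2 fold change was -3.36.

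The Cyp4a genes, which encode omega-hydroxylases of fatty acids, form a cluster on chromosome 4 whose members differed in both directions. Cyp4a12a had 16.9, 0, 17.0, 0 and 7.37 in females and 2271, 2125, 2621 and 2138 in males (log2 fold change -8.11 ± 1.06 (SE), adjusted P = 4.45e-12). Cyp4a12b had 11.0, 0.963, 8.92, 0 and 2.21 in females and 599, 505, 874 and 670.2 in males (log2 fold change -7.15 ± 0.76 (SE), adjusted P = 2.79e-18). The next tested gene of the cluster, Cyp4a14, was the reverse, with 5910.5, 5706, 4808, 3855 and 6683 in females and 93.4, 11.1, 49.8 and 162 in males (log2 fold change 6.09 ± 0.61 (SE), adjusted P = 1.88e-20). Its neighbours Cyp4a10 (log2 fold change 2.44 ± 0.54 (SE), adjusted P = 1.90e-04) and Cyp4a31 (log2 fold change 1.88 ± 0.27 (SE), adjusted P = 6.25e-10) were also higher in females, and Cyp4a32 was not called. Words of 31 bases found in other genes made up 62.2% of those of Cyp4a12a, 62.9% of Cyp4a12b, 44.9% of Cyp4a10 and 31.6% of Cyp4a31, but 1.98% of Cyp4a14, so the division of reads is less certain for all but the last. Without male PP 4 the log2 fold change of Cyp4a14 was 6.73, and without female PP 1 that of Cyp4a12b was -7.76.

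Start windows of 3 cluster members are shown for this change of direction between adjacent genes. Cyp4a12a and Cyp4a12b had 270 of 277 aligned bases identical (97.5%), and Cyp4a12a and Cyp4a14 155 of 272 (57.0%). Capitals mark TTCNNNGAA.
Cyp4a12a (chr4:115155973-115156272, + strand): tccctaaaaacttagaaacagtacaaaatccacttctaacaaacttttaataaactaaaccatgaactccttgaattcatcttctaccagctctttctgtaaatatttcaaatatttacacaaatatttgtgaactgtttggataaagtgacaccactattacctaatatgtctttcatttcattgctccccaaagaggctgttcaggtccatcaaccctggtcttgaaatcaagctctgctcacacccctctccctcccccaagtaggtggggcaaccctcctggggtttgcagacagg
Cyp4a12b (chr4:115268551-115268850, + strand): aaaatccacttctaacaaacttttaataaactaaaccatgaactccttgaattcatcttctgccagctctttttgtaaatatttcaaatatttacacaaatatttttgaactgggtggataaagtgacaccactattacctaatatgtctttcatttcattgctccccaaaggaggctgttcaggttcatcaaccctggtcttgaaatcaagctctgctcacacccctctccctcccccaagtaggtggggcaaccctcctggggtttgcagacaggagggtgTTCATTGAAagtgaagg
Cyp4a14 (chr4:115353315-115353614, − strand): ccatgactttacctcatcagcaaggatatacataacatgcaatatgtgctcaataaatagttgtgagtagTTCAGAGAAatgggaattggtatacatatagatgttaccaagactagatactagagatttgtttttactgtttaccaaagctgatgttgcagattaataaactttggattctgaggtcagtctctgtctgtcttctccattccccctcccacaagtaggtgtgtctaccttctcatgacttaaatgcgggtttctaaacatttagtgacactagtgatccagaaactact
The match of Cyp4a14 lies 200 to 192 bases before the start, that of Cyp4a12b lies at bases 14 to 22 of the transcript, and the window of Cyp4a12a holds none.

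**Figure D3:**
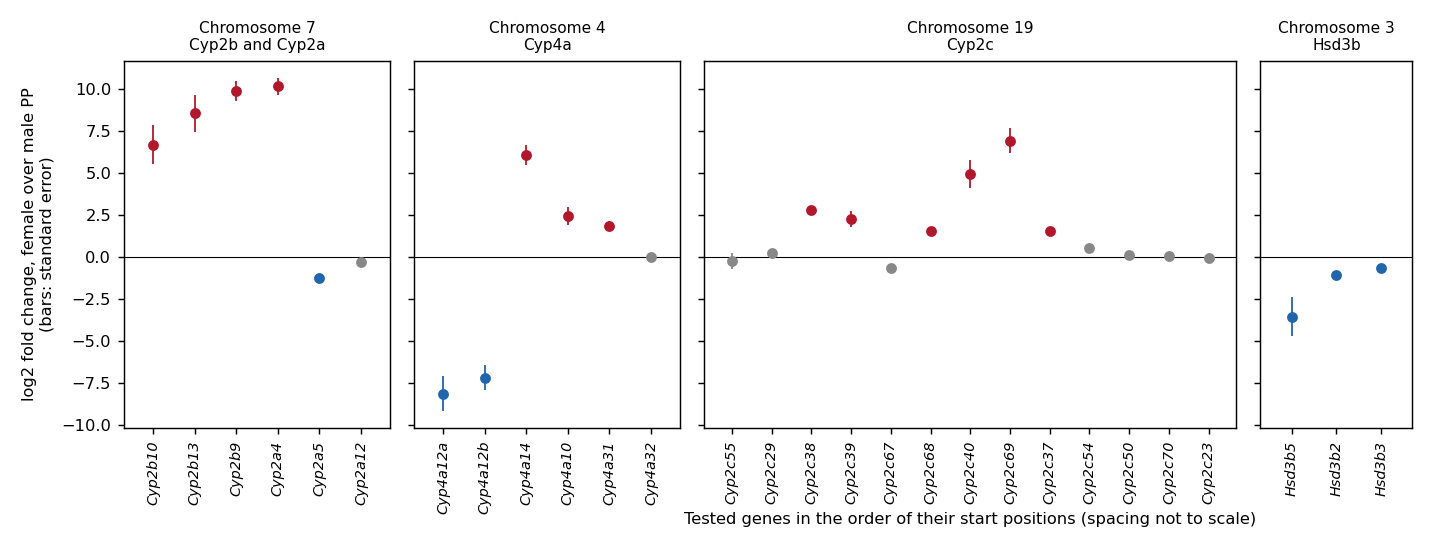
Log2 fold change of female over male PP liver, with its standard error as a bar, for the tested members of 4 gene clusters in the order of their start positions. Red points were called higher and blue points lower in female PP, grey points were not called, and the Cyp2a and Cyp4a panels hold members on both sides of 0.

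Cyp7b1, the oxysterol hydroxylase that also degrades neurosteroids and androgen metabolites, had 208, 44.3, 170.4, 69.0 and 61.9 in females and 3699, 3302, 3090.5 and 2232 in males (log2 fold change -4.80 ± 0.50 (SE), adjusted P = 2.74e-19). Gstp1, a glutathione transferase, had 871, 734, 1302, 1008 and 641 in females and 12971, 13802, 7389 and 10224 in males and the smallest adjusted P of the genes lower in females (log2 fold change -3.61 ± 0.22 (SE), adjusted P = 6.57e-56). Elovl3, a fatty acid elongase, had 16.9, 0, 8.92, 6.71 and 11.1 in females and 304, 325, 298 and 181 in males (log2 fold change -4.97 ± 0.59 (SE), adjusted P = 8.63e-15). For each of these genes the groups were far apart. The ferritin receptor gene Scara5 had 3 counts over all females and 67.9, 139, 117 and 83.8 in males, a male over female ratio of 195 (95% counting interval 66.7 to 945) with an adjusted P of 6.09e-16.

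Further genes lower in female PP were Selenbp2, a selenium-binding protein gene (log2 fold change -4.83, adjusted P = 4.04e-08), Cyp2d9, a testosterone hydroxylase (log2 fold change -3.65, adjusted P = 3.04e-11), Slc41a2, a magnesium transporter (log2 fold change -2.99, adjusted P = 1.05e-23), Ttc39c on chromosome 18 (log2 fold change -2.21, adjusted P = 4.30e-20) and Abcg2, a urate and drug exporter (log2 fold change -1.43, adjusted P = 9.54e-18). Their male and female counts did not overlap. Selenbp2 has 59.3% of its words in common with other genes, and its log2 fold change was -5.50 without female PP 1. Serpina1e, one of the alpha-1-antitrypsin genes, had 12141, 233, 8913, 292 and 819 in females and 76580, 101105, 42262 and 43815 in males. Female PP 1 and female PP 3 lay far above the other females but below all males, and the call (log2 fold change -3.88, adjusted P = 0.0114) was lost in 3 of 22 alternatives, which were edgeR (adjusted P = 0.0569) and the fits without male PP 1 or without male PP 2 (adjusted P up to 0.0749). Without female PP 1 its log2 fold change was -4.69, and 54.8% of its words occur in other genes.

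Complement genes were lower in females where called, except for Mbl2. Of 43 genes of complement and coagulation 8 were lower in female PP and 1 higher (median log2 fold change -0.09), against 3.02% and 4.23% over all genes tested. The lower genes included parts of the membrane attack complex, the pore formed at the end of the complement cascade. C6 had 135, 33.7, 163, 33.6 and 61.9 in females and 1652, 1873, 1372 and 1307 in males (log2 fold change -4.18 ± 0.52 (SE), adjusted P = 2.06e-13). C9 was at 974 ± 457 in female PP and 4120.4 ± 1104 in male PP liver (mean ± SD) (log2 fold change -2.08, adjusted P = 3.25e-06), C8a at 1428 ± 747 in female PP and 4442 ± 789 in male PP liver (mean ± SD) (log2 fold change -1.64, adjusted P = 0.00367), C8b at 972 ± 475 in female PP and 2666 ± 725 in male PP liver (mean ± SD) (log2 fold change -1.46, adjusted P = 0.00544) and Hc, the gene of C5, at 2702 ± 659 in female PP and 5032 ± 1189.7 in male PP liver (mean ± SD) (log2 fold change -0.90, adjusted P = 3.15e-04). C4a, the sex-limited protein of mice, had 24.6, 4.82, 19.6, 10.5 and 8.84 in females and 224, 352, 612 and 346 in males (log2 fold change -4.81 ± 0.49 (SE), adjusted P = 5.88e-20), with 43.4% of its words found in other genes too. Coagulation factors of the list were not called.

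DEGs lay side by side in places, with 16 runs of at least 3 neighbouring tested genes called in the same direction, 10 higher and 6 lower in female PP. The runs hold 63 genes. They include 8 and 6 Mup genes and pseudogenes on chromosome 4, Acot2, Acot1, 4732463B04Rik and Acot4 on chromosome 12, Fads3, Fads2 and Fads1 on chromosome 19, Gstt3, Gstt1, Gstt2 and Mif on chromosome 10, and Hsd3b5, Hsd3b2 and Hsd3b3 on chromosome 3, the last lower in females. Genes of a run often share sequence and are not independent of each other.

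Lipogenic genes were higher in female PP liver, with 12 of 21 tested genes higher and 1 lower and a list median of 0.69. Over all tested genes 4.23% were higher and 3.02% lower. In LL mice 2 genes of the lipogenic list were higher and 2 lower in females, with a median of 0.26. The shares over all tested genes were 2.46% and 2.12% in LL mice. Fasn, the fatty acid synthase gene, had 1246, 1502, 1245, 1496 and 1094 in females and 373, 314, 291 and 446 in males (log2 fold change 1.89 ± 0.16 (SE), adjusted P = 6.00e-30). Both acetyl-CoA carboxylase genes were higher, Acaca at 461 ± 47.1 in female PP and 222 ± 48.9 in male PP liver (mean ± SD) (log2 fold change 1.06, adjusted P = 2.42e-09) and Acacb at 322 ± 70.2 in female PP and 117 ± 16.3 in male PP liver (mean ± SD) (log2 fold change 1.45, adjusted P = 1.01e-12). Acly, which makes cytosolic acetyl-CoA, was higher (log2 fold change 1.16, adjusted P = 1.45e-08), but its call was lost with a transcript length offset (adjusted P = 0.34). Scd1, the main liver desaturase, had 24680, 42427, 29863, 34745 and 27719 in females and 10598, 10407, 20001 and 13207 in males, with no overlap (log2 fold change 1.23 ± 0.21 (SE), adjusted P = 4.07e-07). Elovl5 (log2 fold change 1.64, adjusted P = 8.67e-16) and Elovl6 (log2 fold change 1.29, adjusted P = 2.61e-05) lengthen fatty acids and were higher too, whereas Elovl3, above, was the member that was lower. Srebf1, which encodes a transcription factor that drives this pathway, had 569, 499, 480.1, 538 and 359.6 in females and 246, 184, 198 and 466 in males (log2 fold change 0.83, adjusted P = 0.0146). Male PP 4 overlapped the females for Srebf1, and its call was lost in 7 of 22 alternatives.

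Of 33 tested genes of fatty acid uptake and oxidation, 14 were higher and none lower (median 0.35). The shares over all genes tested were 4.23% and 3.02%. The higher genes included genes of peroxisomal and microsomal oxidation such as Cyp4a14, Hao2 and Abcd2, a peroxisomal fatty acid transporter with 243, 235, 229, 219 and 212 in females and 22.1, 15.6, 2.99 and 14.3 in males (log2 fold change 4.14 ± 0.26 (SE), adjusted P = 9.59e-53). Acyl-CoA thioesterases, which release fatty acids from coenzyme A, were higher in 4 of 9 tested genes, against 4.23% of all genes tested. Acot3 had 688, 1491, 1108, 1476 and 1310 in females and 42.4, 8.90, 89.7 and 96.2 in males (log2 fold change 4.35 ± 0.59 (SE), adjusted P = 2.50e-11), followed by Acot4 (log2 fold change 1.88, adjusted P = 3.36e-10), Acot2 (log2 fold change 1.85, adjusted P = 3.47e-06) and Acot1 (log2 fold change 1.74, adjusted P = 2.17e-08). Ehhadh, the peroxisomal bifunctional enzyme, was at 2329 ± 124 in female PP and 1236 ± 255 in male PP liver (mean ± SD) (log2 fold change 0.91, adjusted P = 4.38e-08). Genes of mitochondrial beta-oxidation on the list, such as Cpt1a, Acadm and Hadha, were not called. For cholesterol synthesis and uptake, 5 of 22 genes were higher and none lower (median 0.32), against 4.23% and 3.02% over all genes tested. The higher genes included the synthesis genes Sc5d (log2 fold change 0.63, adjusted P = 2.15e-07), Pmvk (log2 fold change 0.72, adjusted P = 0.00505) and Mvd (log2 fold change 1.08, adjusted P = 0.0131). The call of Mvd did not hold in 6 of 22 alternatives, that of Pmvk in 3 of 22 alternatives and that of Sc5d in 1 of 22 alternatives. The list had 3 higher genes without male PP 1 and with edgeR, and 2 with a transcript length offset.

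In glucose metabolism 3 of 23 tested genes were higher and none lower (median 0.21), against 4.23% and 3.02% over all genes tested. Gckr, the gene altered in the LL mice, had 552, 718, 587, 825 and 558 in females and 599, 424, 616 and 559 in males, with overlapping groups (log2 fold change 0.24 ± 0.17 (SE), adjusted P = 0.511). Gckr was not called. The genes called included Txnip (log2 fold change 0.91, adjusted P = 5.42e-05) and Fbp1 (log2 fold change 0.39, adjusted P = 0.0239), a gluconeogenic enzyme whose call was lost in 11 of 22 alternatives, edgeR among them (adjusted P = 0.102). Txnip, whose product inhibits thioredoxin, turned direction with a transcript length offset (log2 fold change -0.07). Without male PP 2 and with edgeR 1 gene of the list was higher.

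In steroid hormone metabolism, 3 of 18 tested genes were higher and 7 lower in female PP (median -0.31). The shares over all tested genes were 4.23% and 3.02%. Cyp17a1, the steroid hydroxylase and lyase, had 371, 1101, 527, 876 and 352 in females and 30.6, 66.8, 32.9 and 52.4 in males (log2 fold change 3.82 ± 0.44 (SE), adjusted P = 2.42e-15). Hsd17b6 was higher as well (log2 fold change 1.52, adjusted P = 4.38e-08). On the lower side Hsd3b5, a keto-steroid reductase, had 448, 19.3, 228, 3.84 and 11.8 in females and 2132, 1550.5, 1536 and 1332 in males (log2 fold change -3.53, adjusted P = 0.0367), with a call lost in 12 of 22 alternatives, edgeR among them (adjusted P = 0.0573), and a log2 fold change of -4.64 without female PP 1. Hsd3b2 (log2 fold change -1.07, adjusted P = 1.44e-08) and Hsd3b3 (log2 fold change -0.64, adjusted P = 7.80e-08) were lower with little spread. In bile acid synthesis and transport, 4 of 24 genes were higher and 3 lower, where 4.23% and 3.02% of all tested genes were. The higher genes included Cyp39a1, an oxysterol hydroxylase (log2 fold change 2.26, adjusted P = 5.14e-14), and the transporter gene Slco1a4 (log2 fold change 2.39, adjusted P = 8.94e-04), and the lower ones Cyp7b1. The counts changed to 2 higher genes without male PP 2 or without male PP 3, and to 5 higher and 2 lower without male PP 4.

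Among acute-phase genes 7 of 24 were lower and 1 higher in female PP (median -0.62), against 3.02% and 4.23% over all genes tested. Saa1, the serum amyloid A gene, had 72.9, 81.9, 85.7, 76.7 and 107 in females and 2168, 13342, 627 and 793 in males (log2 fold change -5.64 ± 0.86 (SE), adjusted P = 5.31e-09). Male PP 2 stood far above the other males, and it was also the highest for Hp, the haptoglobin gene, at 33125 against 12925 to 17471 in the other males (log2 fold change -1.18, adjusted P = 1.75e-05). Orm1 was lower in females (log2 fold change -0.73, adjusted P = 0.0102), a call lost in 3 of 22 alternatives. Without male PP 2 the Saa1 log2 fold change was -3.82 and 7 genes of the list were lower, while without male PP 1 there were 4. Saa2 had 27.1, 36.6, 35.7, 46.0 and 52.3 in females and 489, 7434, 195 and 312 in males and received no P value from DESeq2, which sets genes with 1 extreme count aside. In the 9 alternatives that gave Saa2 an adjusted P it was called lower in females, with a log2 fold change of -3.06 without male PP 2.

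Markers of cells other than hepatocytes differed between the sexes for endothelial and stellate cells. Of 10 endothelial markers 8 were higher in female PP and none lower (median 1.17). Of 9 stellate cell markers 7 were higher and none lower (median 1.05). Over all tested genes 4.23% were higher and 3.02% lower. The summed endothelial counts were 639 to 1144 in females and 295 to 532 in males, and those of stellate cells 1207 to 1468 and 463 to 944, without overlap. Kdr, a vascular endothelial growth factor receptor, had 114, 70.3, 55.3, 69.0 and 136 in females and 20.4, 37.8, 41.9 and 55.2 in males (log2 fold change 1.17, adjusted P = 0.00368). Reln, a stellate cell glycoprotein gene, was at 143 ± 33.7 in female PP and 60.4 ± 26.8 in male PP liver (mean ± SD) (log2 fold change 1.24, adjusted P = 1.62e-04), and Lrat, the vitamin A storage enzyme of these cells, at 62.7 ± 21.3 in female PP and 30.1 ± 11.7 in male PP liver (mean ± SD) (log2 fold change 1.03, adjusted P = 0.0163). The call of Lrat was lost in 7 of 22 alternatives, and with the replicate block 4 endothelial markers were called. In bulk liver, fewer cells of a type and less RNA per cell cannot be told apart, and the part of these cells in the other differences was not tested.

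Of 11 Kupffer cell and macrophage markers 0 were called by DESeq2 or edgeR, with 1 at an unadjusted p below 0.05, at summed counts of 1384 to 1732 in females and 796 to 2004 in males. Clec4f, their defining lectin, had a log2 fold change of 0.27 (adjusted P = 0.54). Of 4 erythroid genes 1, Hba-a1, was lower in females, against 3.02% of all tested genes. Of 10 hepatocyte markers 3 were higher (Alb, Ahsg and Ttr), against 4.23% of all tested genes. Without male PP 4 and with edgeR 1 hepatocyte marker was higher, and the erythroid count was 3 without male PP 1 and 0 without male PP 3. In the LL mice the median log2 fold change was 0.23 over the endothelial and 0.31 over the stellate markers, with 0 and 1 genes called. Of all tested genes 4.58% were called in LL mice.

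Over all tested genes 4.23% were called higher and 3.02% lower, and the lists below are set beside these shares. Of 17 core clock and clock output genes 0 were called by DESeq2 or edgeR, with 5 at an unadjusted p below 0.05, and Bmal1 was not tested, at 6 estimated counts at most in a library. Of pericentral hepatocyte genes 1 of 16 was lower, Cyp1a2 (log2 fold change -0.53, adjusted P = 0.00356, lost in 8 of 22 alternatives), and of periportal genes 5 of 17 were higher, including Alb, and 1 lower. With 1 mouse left out, 3 periportal genes (without female PP 2, male PP 2 or male PP 4) to 8 (without female PP 1) were higher and at most 1 was lower. The unfolded protein response list had 2 higher and 2 lower genes of 20, with Dnajb9, an endoplasmic reticulum chaperone partner, lower (log2 fold change -0.80, adjusted P = 7.94e-05) beside Xbp1. The 2 higher genes were not stable, since 0 were called higher with edgeR or when any of female PP 1, 2, 3 and 5 and male PP 1 and 4 was left out, and 4 were without male PP 2. Among 25 interferon-stimulated genes Gbp3 (log2 fold change 0.99, adjusted P = 0.00211) and Ifi44 (log2 fold change 1.44, adjusted P = 0.0187) were called, the latter lost in 8 of 20 alternatives, and 1 to 3 genes of the list were called with 1 mouse left out. Ribosomal protein genes, measured in 72 members, had 1 higher and 2 lower. Of heat shock and immediate early genes 1 of 10 was higher, Hspb1, and of proliferation genes 1 of 5, Top2a, where the heat shock list had 0 (without female PP 1, female PP 2, male PP 1 or male PP 4) to 3 (without male PP 2) higher genes with 1 mouse left out. Of the few tested markers of B cells (3), cholangiocytes (1) and adipocytes (2), 0 were called by DESeq2 or edgeR, with 1 at an unadjusted p below 0.05, and the acinar gene Cela1, with 1 such marker tested, was lower, a call lost with edgeR and on leaving out any one mouse except female PP 1.

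Of genes known from the field for higher expression in female liver, 23 of 28 tested were higher here and none lower, with a median log2 fold change of 4.63. Of those known for male liver, 28 of 32 were lower in females and none higher, with a median of -3.44. Both lists were fixed with earlier results of these data known, so they are no separate check. Members that fell below the count filter were not tested. They include Sult2a2, with up to 390 estimated counts in a female and 1 in a male library, and Moxd1, with 0 in every female and up to 320 in a male library.

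**Figure D4:**
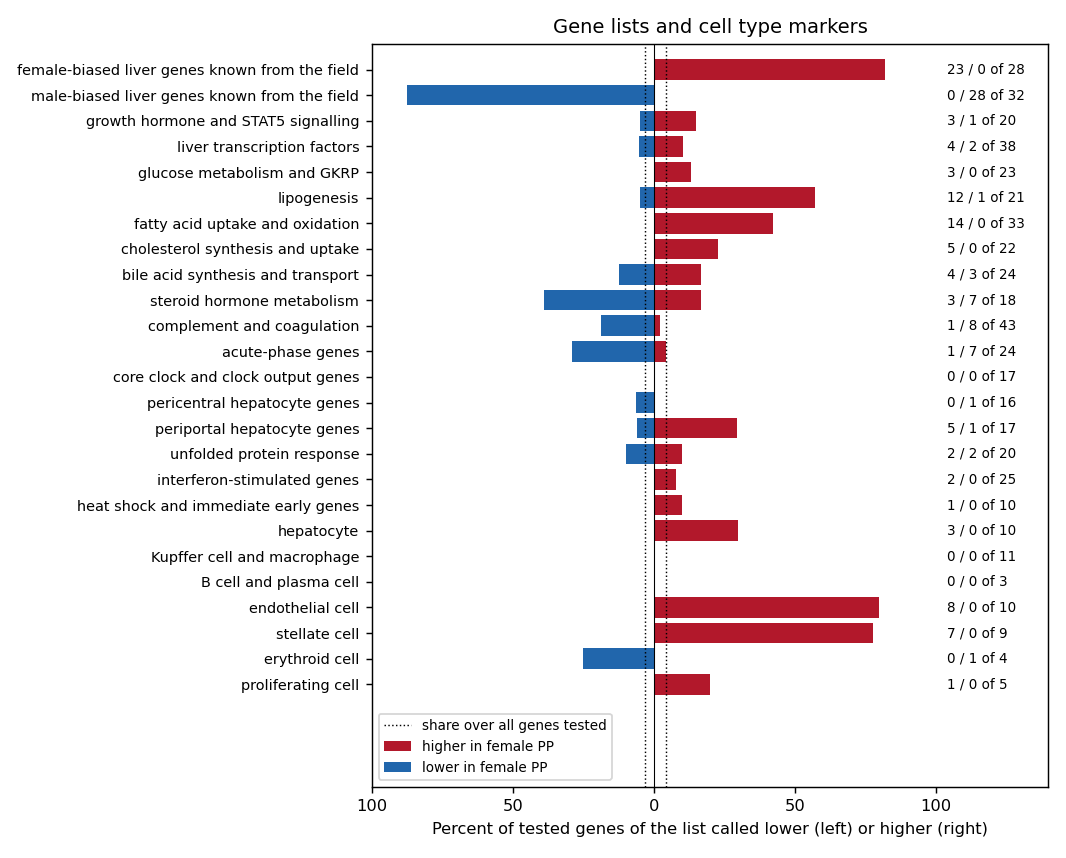
Percent of the tested genes called, for each list with at least 3 tested genes, higher (red, to the right) or lower (blue, to the left) in female PP, with counts at the right edge as higher / lower of tested. Dotted lines mark the shares over all genes, 4.23% and 3.02%, and the bars of the known sex-biased lists, lipogenesis and the endothelial and stellate markers reach past 50%.

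The same comparison in the LL mice, fitted separately on their 9 libraries, gave 465 DEGs (4.58%), 250 higher (2.46%) and 215 lower (2.12%) in females. Of the 430 genes higher in female PP, 399 had the same sign in LL mice, where 51.8% of all genes were above 0, and 130 were also DEGs, which is 30.2% of the PP and 52% of the LL list. Of the 307 genes lower in female PP, 291 kept their sign, where 48.2% of all genes were below 0, and 138 were DEGs, 45.0% of the PP and 64.2% of the LL list. No PP DEG was a DEG of the opposite sign in LL mice. All 51 and 56 genes with a PP log2 fold change of at least 2 in size kept their sign, and 40 and 51 of them were DEGs again. Across the 737 genes, which are not independent of each other, Pearson's r of the log2 fold changes was 0.93. The LL medians of 0.60 and -0.72 were nearer to 0 than those of PP mice. These genes were picked by P and size in the PP mice. Medians nearer to 0 in other mice tend to follow from that choice, so they do not compare the genotypes.

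Prlr in LL mice had 965, 1086, 1162, 954 and 1094 in females and 483, 197, 177 and 206 in males, with a log2 fold change of 1.99. Cux2 had 16.4, 35.6, 23.2, 50.2 and 40.6 in females and 0, 0, 0 and 2.04 in males. Cyp2b13 was at 0 in all 4 LL males, where 2 of the PP males had a few counts. The genotype by sex interaction, which tests whether the sex difference itself differs between genotypes, passed for 13 of the 10156 genes (0.128%) with DESeq2 and for 0 with edgeR, while 580 genes (5.71%) had an unadjusted p below 0.05 with DESeq2 and 642 with edgeR. Cyp4a14 was among the 13, with 4007, 4371, 7178, 5029.5 and 5538 in LL females and 2365, 1189, 817 and 99.9 in LL males, so that the sex difference was 6.09 in PP and 2.23 in LL mice (interaction adjusted P = 0.0189).

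For Scd1 the LL males had 34243, 29647, 33060 and 37502, and the sex difference was 1.23 in PP and -0.42 in LL mice (interaction adjusted P = 0.0475). For Alb it was 0.94 and 0.33 (0.0189) and for Afm 1.13 and 0.50 (0.0277). For Saa1, whose PP value rests partly on male PP 2, it was -5.64 and -2.01 (0.0277). Lepr had 40.6, 43.1, 34.7, 70.0 and 44.7 in LL females and 19.7, 24.9, 15.2 and 58.1 in LL males, a sex difference of 0.66 against 4.12 in PP mice. Its unadjusted DESeq2 interaction p was 1.35e-08, but it got no adjusted P because its mean count, like that of most tested genes, lay below the cut. The same held for Abcd2 (unadjusted p = 5.77e-06) and Cyp39a1 (5.94e-05), so the DESeq2 calls cover only genes of higher counts. The edgeR test of the interaction made none of these calls.

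**Figure D5:**
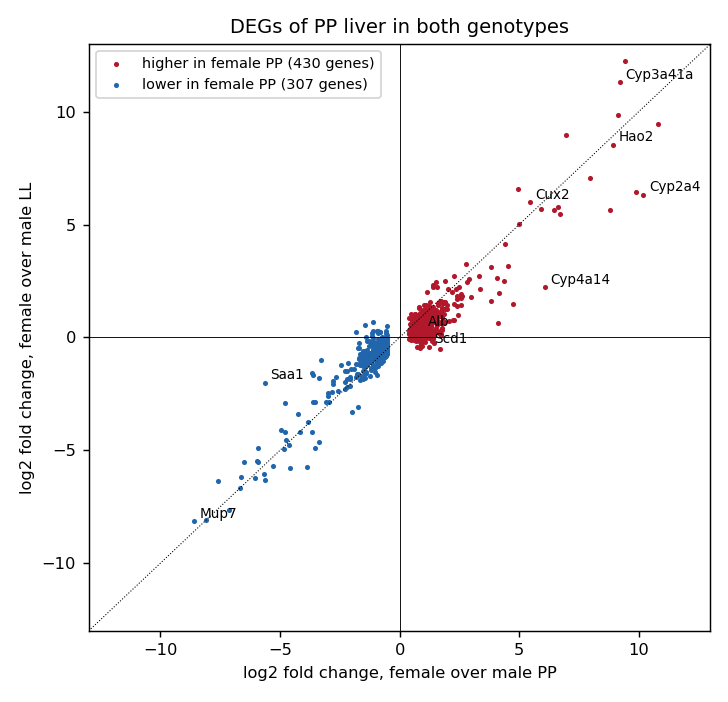
Log2 fold change of female over male liver in PP mice (horizontal) and in LL mice (vertical) for the 737 DEGs of PP liver, red for the 430 higher and blue for the 307 lower in female PP, with the line of equality dotted. Most points lie in the quadrants of equal sign, and Cyp4a14, Scd1 and Saa1 lie nearer to the horizontal axis than to the dotted line.

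Some DEGs varied widely between livers of one sex. Among DEGs with a mean of at least 100 counts in females, the largest coefficients of variation there were those of Cyp3a41a (176%), Hsd3b5 (137%), Mup15 (137%), A1bg (131%) and Mup19 (128%). Mup19, with a log2 fold change of -3.84 that was -4.97 without female PP 3, had 20089, 2113, 54666, 4915 and 4470.1 in females and 64792, 358496, 336399 and 228879 in males, and female PP 3 came close to male PP 1. Among DEGs with a mean of at least 100 counts in males they were those of Saa1 (144%), Cyp2c40 (125%), Gm31583 (75.3%), Cyp4a10 (70.1%) and Mup18 (67.0%). Female PP 1 and female PP 3 were the highest of the females for Mup7, Mup20, Mup19, Hsd3b5 and Serpina1e, and the lowest for Cyp2b13.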

How the data were processed

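Liver RNA of 18 mice was measured, 1 library per mouse, and the 9 PP libraries gave the main comparison. The authors extracted RNA with Trizol and columns with DNase digestion and quantified untrimmed reads, checked with FastQC, with Salmon 1.4.0 (version from the submitters' processing notes) against GENCODE M26 transcripts (GRCm39). The deposited estimated counts (expected counts) were not scaled between libraries, and the deposited TPM values sum to the same total in each. The effective lengths deposited by the authors gave the fragment length, as the median of length less effective length over transcripts of at least 3000 bases.

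Transcripts were joined to genes through GENCODE M39, which held 137570 of 139225 transcripts and at least 99.76% of the counts. Sums were rounded. DESeq2 1.42.0 (R 4.3.3, Wald test, sex as the only term) was run on autosomal genes that reached 10 counts in 4 or more of the 9 PP libraries. Genes on X, Y and the mitochondrial genome were left out. DEGs had an adjusted P (Benjamini-Hochberg) under 0.05 and a ratio of 1.3 or above, or of 0.7 or below. LL mice were fitted alone and the interaction over all 18 libraries. Alternatives included the edgeR 4.0.16 quasi-likelihood test, other scaling, filters, covariates and leaving out each mouse. The share of Mup counts was tested with an exact permutation test over 126 assignments. Scripts were tested on simulated data. Words of 31 bases shared between genes were counted over the reference transcripts, and motifs were searched on both strands of 300-base windows. Named genes were the 12 per direction with the smallest adjusted P and the 8 with the largest change at a mean of at least 100 counts in the higher group, members of lists and families, regulators fixed by name, the 5 most variable DEGs per sex at a mean of at least 100 counts in that sex and those with the smallest interaction p. A few named genes are not reported here. Lists and members were chosen with earlier results of these data known. Total counts of 3794671 to 6613905 per library leave genes of a few counts with a wide counting error.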

Additional observations from a re-analysis of the deposited data

Results flagged for a closer look

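In 236 groups of 4 or 5 livers of 1 sex, over the named genes and library measures, 15 had a liver whose distance from the others was past Dixon's 95% critical value, where chance alone picks out about 1 in 20 groups. One liver was far above the others of its group for Cyp3a41a in female PP 4 (3851 against 4.42 to 517), A1bg in female PP 2 (2048 against 42.7 to 620.5), Mup8 in female PP 3 (55.3 against 1.92 to 11.6), Acly in male PP 4 (646 against 491 to 510.4), Saa1 in male PP 2 (13342 against 627 to 2168), Saa2 in male PP 2 (7434 against 195 to 489), Hp in female PP 1 (11532 against 7956 to 8572), Oit3 in male PP 4 (31.4 against 15.3 to 17.9) and Cyp1a2 in female PP 4 (2589 against 1627 to 1868), in normalised counts and with the range of the other livers. One liver was far below for Egfr in male PP 4 (3232 against 4450.4 to 4585) and Lepr in male PP 2 (2.23 against 4.76 to 5.09). Near the floor of a few counts, 1 male liver was above the others for Cyp2b9 in male PP 1 (8.49 against 0 to 1.11), Sult3a1 in male PP 1 (1.70 against 0), A1bg in male PP 2 (1.11 against 0) and Slc22a27 in male PP 4 (0.952 against 0). Male PP 2 stands out for both Saa1 and Saa2. Of their 31-base words 44.9% (Saa1) and 45.2% (Saa2) occur in other genes, so these flags may not be independent.

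Among the genes that DESeq2 gave an adjusted interaction P, the sex difference itself differed between PP and LL mice for 13 (adjusted P from 1.06e-04 to 0.0475). None of them passed with edgeR. For 12 of them, the change in the female over male log2 fold change, LL less PP, was 0.61 for Ube2l6, -0.62 for Uox, -3.87 for Cyp4a14, -0.61 for Alb, -0.63 for Afm, -1.66 for Scd1, -10.90 for Ahcyl, 4.28 for Saa2, 0.62 for H2-K1, 3.62 for Saa1, 0.62 for AW112010 and 1.50 for Rn18s-rs5. Ahcyl was at 0 in all 5 LL females and in male LL 2, at 1732, 1226 and 744 normalised counts in the other LL males and at 71.1 to 1497 in the PP mice, so its fitted change depends on the zeros and gives no bound, and its cause was not tested.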

How the results depend on the processing

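The count of 737 DEGs between female and male PP liver lay within 1.5 times of itself under every alternative run, from 493 with a replicate block to 744 with TMM scaling, and was 578 with edgeR, 545 with fragment length and 659 with age as a covariate. A transcript length offset gave 649 DEGs, of which 444 were among the 737. Leaving out each mouse gave 554 to 694 DEGs, 317 to 403 higher and 231 to 291 lower. Same-numbered mice of the 2 sexes shared only a number, with correlations of their deviations of 0.10, -0.01, -0.08 and 0.08 for numbers 1 to 4. The replicate block gave 268 higher and 225 lower DEGs in PP mice, against 665 in all for the same 8 libraries without the block, 231 in LL mice and 4 for the interaction. The 268 higher DEGs were not within 1.5 times of the 430 of the main fit, while the 225 lower were within it of the 307. The fit without the block, the blocks of LL mice and of the interaction, and a fit that keeps extreme single counts (740 DEGs) were chosen after seeing the data. In LL mice edgeR called 237 DEGs and leaving out each mouse gave 317 to 479. The interaction gave 0 genes with edgeR (against 13), 9 with fragment length and 5 (without male PP 2) to 27 (without female LL 3) when each mouse was left out. Of 105 named genes that were called, 76 neither lost the call nor turned direction under any of these alternatives. Of the 10 named genes that were not called, 5 gained a call, Saa2 in 9 of 9 alternatives and Cish, Ghr, Tox and Stab2 in 1 each. Beside the losses given with the genes above, 1 or 2 of the alternatives ended the calls of Igfals, Egfr, Xbp1, Fmo5, Mup19, C8b, Kdr, Oit3, Reln and Gbp3, and Hgf, Srd5a1 and Creld2 lost theirs in 8 of 21 alternatives, 10 of 22 alternatives and 12 of 22 alternatives. With a length offset Txnip turned to -0.0708 and Clec4f to -0.34. On the TPM scale some family sums turned from a negative to a positive log2 ratio of female over male. These log2 ratios of summed TPM were 0.0397 for Cyp2d, 0.52 for Cyp3a, 0.68 for Sult, 0.54 for Ugt1 and Ugt2, 0.71 for Ugt3, 0.23 for Hsd3b, 0.0312 for Akr1, 0.64 for Ces, 0.0849 for Slco and 0.51 for Rpl and Rps. These values are below the shift of 0.74 of the median gene on that scale. With each mouse left out, the log2 ratio of summed counts ranged from -0.39 to 0.11 for Cyp3a. That of Rpl and Rps ranged from -0.0724 to 0.0261. The cause was not tested. Genes of few counts could not be tested at this depth, and closely related genes share reads.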
